A study of Mus musculus with 8 samples.

Results

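Day 11 knockout cells were set against normal day 2 precursors: the 2 arrays of lung macrophages sorted from 11 day old mice that lack PPARγ in CD11c-expressing cells, and the 2 arrays of fetal-derived alveolar macrophage precursors (pre-AM) sorted from 2 day old control mice. These are 4 of the 8 arrays of the series, taken by their titles. The question was whether knockout cells at day 11, which the submitters describe as arrested and immature, look like the normal precursor. The arrays were compared over 18782 genes, each represented by 1 probe set with 1 gene symbol.

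The day 2 control group came from PPARg fl/fl mice, in which the Pparg gene is flanked by loxP sites but no recombinase is present. The day 11 knockout group came from CD11c-Cre/PPARg fl/fl mice, in which the CD11c promoter drives Cre, so the deletion is limited to cells that express or have expressed CD11c. All mice were on a C57BL/6 background, and each array held RNA of cells pooled from the lungs of 2 mice, so n = 2 arrays per group throughout. The other 4 arrays were the day 2 knockout and the day 11 control, again 2 arrays each. Day 2 cells were sorted as CD45+ F4/80+ CD11c high cells that were either Siglec-F intermediate with intermediate CD11b or Siglec-F low with high CD11b. Day 11 cells were CD45+ CD11c high, highly autofluorescent and Siglec-F+, with low CD11b in control and high CD11b in knockout mice. Age, genotype and sorting gate all differ between the compared groups, and their shares in a difference cannot be told apart.

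Alveolar macrophages live in the airspaces of the lung, where they clear surfactant lipids and inhaled particles. They arise from fetal monocytes that enter the lung before birth, pass through a precursor stage around birth and mature in the following days under GM-CSF, a cytokine made by alveolar epithelium. GM-CSF induces PPARγ, a nuclear receptor that binds fatty acids with its partner RXR and switches on genes for lipid uptake, storage and breakdown.

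The genes of the sorting markers were read first. Itgam, which encodes CD11b, was at log2 signals of 7.87 and 7.79 on the precursor arrays and 10.86 and 10.66 on the day 11 knockout arrays, a log2 difference of 2.93 ± 0.10 (SE; limma, adjusted p = 4.53e-06). Siglecf was at 9.85 and 9.90 in precursors and 8.73 and 8.85 in knockout cells (-1.09 ± 0.11, adjusted p = 0.000375), while Itgax (CD11c) was 0.92 ± 0.06 and Adgre1 (F4/80) 0.61 ± 0.06 higher in the knockout. The stated precursor gates were for intermediate or for high CD11b, and the labels tie neither to a genotype. The direction of the CD11b gate difference is therefore not known. Siglecf was lower in knockout cells, gated as Siglec-F+, than in precursors, gated as Siglec-F intermediate or low. The part of the gates in these differences was not tested. The pan-leukocyte gene Ptprc (CD45) was at 11.00 and 10.96 against 10.85 and 10.86. The macrophage genes Cd68 and Lyz2 were at 12.14 or above on all 4 arrays.

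The Pparg transcript itself was not lower in knockout cells. It was at 10.89 and 11.01 in precursors and 11.32 and 11.36 in day 11 knockout cells, 0.39 ± 0.08 higher (adjusted p = 0.0103), a call lost without precursor replicate 1 (adjusted p = 0.0731) or knockout replicate 2 (0.0564). The labels do not say where the probes lie relative to the deleted part of the gene, so this value does not check the deletion. Xist, the X-inactivation transcript of female cells, was at 10.44 on precursor replicate 1 and 3.38 on replicate 2, and at 3.46 on knockout replicate 1 and 10.30 on replicate 2, while it lay between 9.85 and 10.68 on the other 4 arrays. The pools of both compared groups thus differed in Xist, and a fit with Xist signal as a block called 4486 genes. Of 4 measured sex-linked genes, Xist and Y-linked genes, 1 lay above the array median on day 2 knockout replicate 1. On every other array 3 or 4 did. The other 4 arrays were thus alike in Xist but not in Y-linked genes.

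Day 11 knockout cells stood well apart from normal precursors. In the linear model over all 8 arrays, 4813 genes (25.6% of those tested) differed at a Benjamini-Hochberg adjusted p under 0.05, with 2356 (12.5%) above the precursor and 2457 (13.1%) below it. Without precursor replicate 1 the count was 3018, and without replicate 2 it was 2948. At least 2-fold differences that passed the test numbered 727 (3.87%), with 382 (2.03%) higher and 345 (1.84%) lower. The 2 knockout arrays and the 2 precursor arrays did not overlap for 11847 genes (63.1%). With 2 arrays against 2, many genes would not overlap through the order of the arrays alone. The share is therefore no measure of distance.

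Most genes, dim ones included, nevertheless lay within 2-fold of the precursor level. The 95% interval of the difference stayed within 2-fold for 17439 genes (92.8%), and 13792 genes (73.4%) were both uncalled and within 2-fold. A further 177 genes (0.942%) were uncalled with an interval reaching beyond 2-fold, so for these the arrays could not show whether the groups differed.

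Over all genes, the day 11 knockout was no nearer to the precursor than to the normal day 11 cell. The root mean square log2 difference between group means was 0.431 against day 2 control, 0.415 against day 11 control and 0.361 against day 2 knockout. For scale, normal cells at day 2 and day 11 were 0.25 apart, and single arrays of the day 11 knockout were 0.192 apart. Each of the 4 pairs of a day 11 knockout and a precursor array differed by 0.44 to 0.456, and each of the 4 pairs of day 2 and day 11 control arrays by 0.264 to 0.28. By the same test, the day 11 knockout differed from day 11 control in 3500 genes (18.6%) and from day 2 knockout in 2915 genes (15.5%), and the control ages differed from each other in 996 genes (5.3%). Without day 11 control replicate 1, 2059 genes differed from day 11 control; without day 2 knockout replicate 1 or day 11 knockout replicate 2, 1632 and 1541 genes differed from day 2 knockout. These comparisons share arrays and are given side by side.

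**Figure D1:**
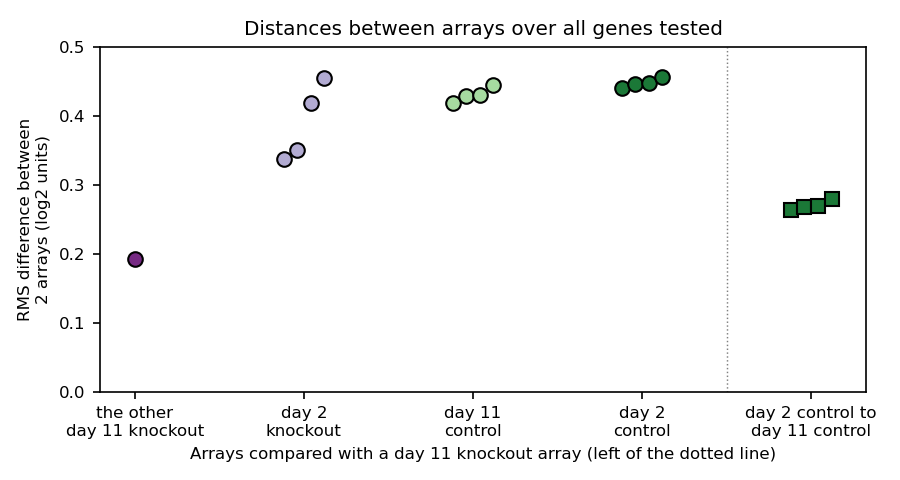
Root mean square log2 difference between pairs of arrays over the 18782 genes tested; circles are pairs that include a day 11 knockout array, grouped by the group of the other array, and squares are the 4 pairs of a day 2 and a day 11 control array. Day 11 knockout arrays lie 0.44 to 0.456 from the precursor arrays and 0.419 to 0.445 from the day 11 control arrays, while control arrays of the 2 ages lie 0.264 to 0.28 apart.

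Genes typical of the alveolar macrophage split into those far below the precursor, those at its level and those above it. Of 41 measured genes on this list, 17 were lower and 9 higher in day 11 knockout cells than in precursors, with a median log2 difference of -0.14 against -0.01 over all genes tested. These are 41.5% and 22% of the list, beside 13.1% and 12.5% of all genes. Without precursor replicate 2 the count of lower genes was 11 and the median -0.09. Against day 11 control, 19 of the 41 were lower and 3 higher (median -0.28), beside 9.29% and 9.34% of all genes. Against day 2 knockout, 1 was lower and 20 were higher (median 0.30), beside 6.71% and 8.81% of all genes. Fewer cells of a type and less RNA per cell cannot be told apart in such bulk samples.

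Krt79, a keratin, gave the largest fall by the rule used to choose genes: it was at 9.71 and 9.95 in precursors and at 5.44 and 5.83 in day 11 knockout cells (-4.19 ± 0.13, adjusted p = 4.03e-06). Marco, a scavenger receptor for particles and bacteria, was at 9.46 and 9.44 against 6.03 and 5.45 (-3.71 ± 0.16, adjusted p = 9.87e-06). Both knockout arrays thus lay near the median of all values on an array, 5.35, for genes that precursors already expressed well above it. Krt19, another keratin, was at 10.84 and 10.81 against 7.60 and 7.62 (-3.22 ± 0.31). The cytokine gene Il18 was at 10.47 and 10.50 against 9.26 and 9.09 (-1.31 ± 0.12).

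Some of the genes furthest below the precursor were as low in day 2 knockout cells. Krt79 was at 5.55 and 5.61 there and Marco at 5.93 on both arrays, and neither passed the test between the knockout ages (log2 differences of 0.06 and -0.19). Siglecf, Krt19 and Cidec lay between day 2 knockout and precursor: they were 1.49, 1.81 and 0.86 higher in day 11 than in day 2 knockout cells on the log2 scale, each past the threshold, beside differences of -1.09, -3.22 and -3.17 from the precursor.

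Other hallmark genes of the cell type were at the precursor level. Car4, which encodes carbonic anhydrase 4, was at 12.02 and 11.98 in precursors and at 11.99 and 12.24 in day 11 knockout cells, a difference of 0.12 with a 95% interval of -0.10 to 0.33. Plet1 was at 12.40 and 12.45 against 12.34 and 12.37, and the chemokine gene Ccl6 at 12.32 and 12.30 against 12.35 and 12.36. The transcription factor gene Bhlhe41 was at 10.07 and 9.998 against 10.13 and 10.04, where day 2 knockout cells were at 9.06 and 9.18 (day 11 knockout 0.97 higher, adjusted p = 0.000511). For these 4 genes the interval of the difference stayed within 2-fold, and none passed the test.

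A few genes stood above the precursor and were nearer to the normal day 11 cell than to the precursor. A missed threshold between the day 11 groups does not by itself show that they were alike. Chil3, which encodes a chitinase-like lectin, was at 8.92 and 9.12 in precursors, 11.14 and 11.47 in day 11 knockout cells and 11.82 and 11.93 in day 11 control cells (2.28 ± 0.35 above the precursor; -0.57 from day 11 control, adjusted p = 0.35). Kcnip4, a potassium channel subunit, was at 4.53 and 4.75 in precursors, 6.04 and 6.32 in the day 11 knockout and 6.59 and 6.32 in day 11 control. Flt1, a receptor for VEGF, was 1.14 ± 0.17 above the precursor and differed by 0.11 from day 11 control (adjusted p = 0.77). Ctsk, which encodes cathepsin K, exceeded both: it was 1.63 ± 0.06 above the precursor and 0.63 above day 11 control. Fabp1, a fatty acid binding protein chosen after its values were seen, was at 5.07 and 5.56 in precursors, 9.89 and 9.54 in day 11 control and 4.94 and 4.90 in day 11 knockout cells, and did not pass the test against the precursor (-0.40, adjusted p = 0.124).

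**Figure D2:**
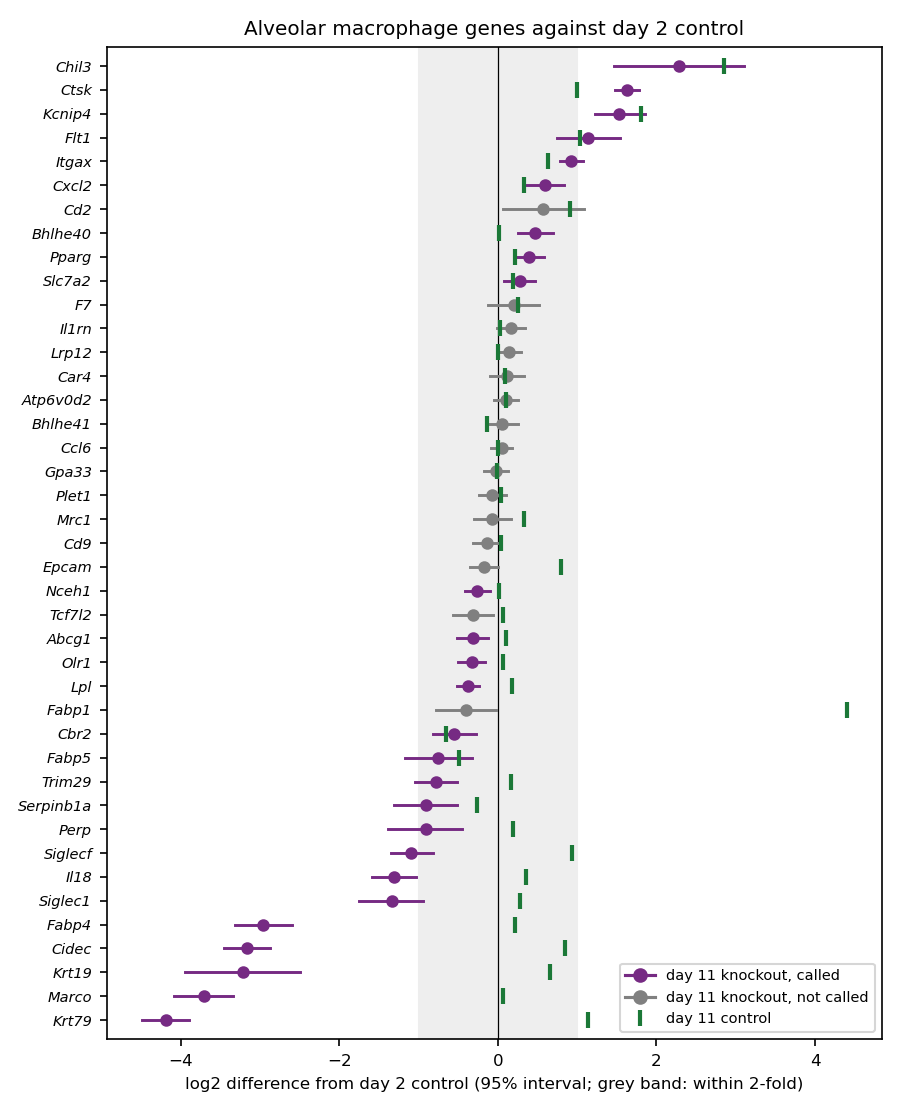
Log2 difference of day 11 knockout from day 2 control for the 41 measured alveolar macrophage genes (circles with 95% intervals; purple passed the test, grey did not), with the day 11 control as green ticks; the grey band marks differences within 2-fold. Krt79, Marco, Krt19, Cidec and Fabp4 lie at or below -2.96, while Chil3, Ctsk, Kcnip4 and Flt1 lie above 1 with the day 11 control ticks on the same side.

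PPARγ targets and lipid droplet genes were more often lower than higher. Of 35 measured members, 14 were lower and 6 higher than in precursors (40% and 17.1%, beside 13.1% and 12.5% of all genes), with a median of -0.20. Fabp4, the fatty acid carrier most used as a PPARγ target, was at 9.11 and 9.10 in precursors and 5.90 and 6.39 in day 11 knockout cells (-2.96 ± 0.16, adjusted p = 2.06e-05). Cidec, a protein that fuses lipid droplets, was at 10.07 and 10.15 against 7.09 and 6.80 (-3.17 ± 0.12, adjusted p = 7.49e-06). Acaa1b, a peroxisomal thiolase, was at 7.87 on both precursor arrays and at 4.50 and 4.78 in the knockout (-3.23 ± 0.19). Largest falls of a list were taken only from genes whose arrays did not overlap, so the lack of overlap is no separate result. Nr1h3, which encodes the oxysterol receptor LXRα, was -2.23 ± 0.23, and Pex11a, a peroxisome division gene, -1.82 ± 0.15.

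The 6 higher members included Pdk4, a kinase that restrains pyruvate use, at 5.46 and 5.05 in precursors and 8.61 and 8.72 in day 11 knockout cells (3.40 ± 0.18, adjusted p = 2.09e-05). Pdk4 was also high in day 11 control, at 8.23 and 8.20. Slc27a1, a fatty acid transporter, was 1.07 ± 0.07 and Cyp27a1, which makes oxysterols, 1.05 ± 0.10 above the precursor, and both were also above day 11 control, by 0.90 and 0.87.

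Fatty acid breakdown and sterol synthesis leaned the same way with smaller differences. Lower were 45.5% of the fatty acid oxidation list and 40% of the cholesterol biosynthesis list, beside 13.1% of all genes. In the list of cholesterol efflux and LXR targets 35% were higher and 30% lower, beside 12.5% and 13.1% of all genes. In mitochondrial fatty acid oxidation 10 of 22 genes were lower and 1, Hadh, was higher (2 were higher without precursor replicate 2, without either day 2 knockout array or without either day 11 control array). Acads, a short-chain acyl-CoA dehydrogenase, was -0.92 ± 0.10, Cpt2, which takes fatty acids into the mitochondrial matrix, -0.87 ± 0.07, and Etfdh, which passes their electrons on, -0.80 ± 0.06, while Cpt1a at -0.08 (95% interval -0.27 to 0.11) lay at the precursor level. No member that passed the test was 2-fold lower. In cholesterol biosynthesis 8 of 20 genes were lower and none was higher, with 5 lower without precursor replicate 2 or knockout replicate 1; Hmgcs1 was -1.21 ± 0.12 and Fdps -0.91 ± 0.10. The list of cholesterol efflux and LXR target genes was split, with 7 of 20 higher and 6 lower; without precursor replicate 1 these were 4 and 3, without precursor replicate 2 there were 2 lower, without knockout replicate 1 there were 4 higher and without knockout replicate 2 there were 2 lower. Its largest rise was Ch25h, which makes 25-hydroxycholesterol, at 6.41 and 6.19 against 10.36 and 10.91 (4.33 ± 0.19, adjusted p = 9.98e-06).

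Markers of lung epithelium moved with these falls. Of 19 measured epithelial markers, 9 were lower and 3 higher in day 11 knockout than in precursor cells (47.4% and 15.8%, beside 13.1% and 12.5% of all genes), with 4, 2 and 4 lower without precursor replicate 1, precursor replicate 2 and knockout replicate 2. Ager, a marker of flat alveolar cells, was at 7.41 and 7.37 against 6.46 and 6.49 (-0.91 ± 0.11), and the list's median level was 6.69 and 6.58 on precursor arrays and 6.27 and 6.11 on knockout arrays. The 3 higher were Pdpn (2.90 ± 0.24), Hopx (0.94 ± 0.09) and Cdh1 (0.56 ± 0.11; adjusted p = 0.0577 without precursor replicate 1). The part of epithelial RNA in the other results was not tested.

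Every measured gene of the 2 cell cycle lists was lower in day 11 knockout cells than in normal precursors. All 35 genes of DNA replication and S phase and all 41 genes of mitosis passed the test and were lower, beside 13.1% of all genes. For each of the 76 genes both knockout arrays lay below both precursor arrays. Over all genes the arrays of the 2 groups did not overlap, in either direction, for 63.1%. The median log2 difference was -1.22 in the S phase list and -1.39 in the mitosis list, the range over all 76 was -2.03 to -0.56, and 63 were at least 2-fold lower. Across the alternative settings that kept all 76 genes, between 74 and 76 passed the test.

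Among replication genes, Uhrf1, which maintains DNA methylation at forks, was at 8.35 and 8.40 in precursors and 6.55 and 6.22 in day 11 knockout cells (-1.99 ± 0.11, adjusted p = 2.09e-05). Mcm6, a subunit of the replicative helicase, was at 8.96 and 8.93 against 7.32 and 7.10 (-1.73 ± 0.11), and Tk1, which makes thymidine phosphate, at 9.14 and 9.29 against 7.60 and 6.93 (-1.95 ± 0.19). Mcm2 and Lig1 followed with -1.78 ± 0.11 and -1.76 ± 0.12. The knockout arrays were low on all 5 genes, replicate 2 always the lower of the pair.

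Among mitotic genes, Bub1, a spindle checkpoint kinase, was at 9.02 and 9.01 in precursors and 7.10 and 6.87 in day 11 knockout cells (-2.03 ± 0.10, adjusted p = 1.9e-05). Ncapg, a condensin subunit, was at 8.36 and 8.33 against 6.59 and 6.16 (-1.96 ± 0.13), and Ccnb2, which encodes cyclin B2, at 10.97 and 11.09 against 9.55 and 8.97 (-1.77 ± 0.16). Cdc20, which starts chromosome separation, was at 7.99 and 8.14 against 6.75 and 6.32. Kif23 and Birc5, both needed for cells to divide after mitosis, were -1.82 ± 0.13 and -1.80 ± 0.11. Mki67, the gene of the Ki-67 antigen, was at 10.57 and 10.68 against 9.62 and 9.22 (-1.20 ± 0.13, adjusted p = 0.000383), so its level remained far above the array median of 5.35.

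Among the 4 groups, the day 11 knockout was the lowest by group mean for 72 of the 76. Day 11 control cells were below precursors with medians of -0.23 and -0.29, and 11 of the 76 were lower by the test, beside 2.49% of all genes. Against day 11 control, 75 of the 76 genes were lower in day 11 knockout cells (medians -0.88 and -1.13), beside 9.29% of all genes. This is the test of the difference between the knockout's and the control's distance from the precursor. Against day 2 knockout 47 were lower (medians -0.45 and -0.60), beside 6.71% of all genes.

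**Figure D3:**
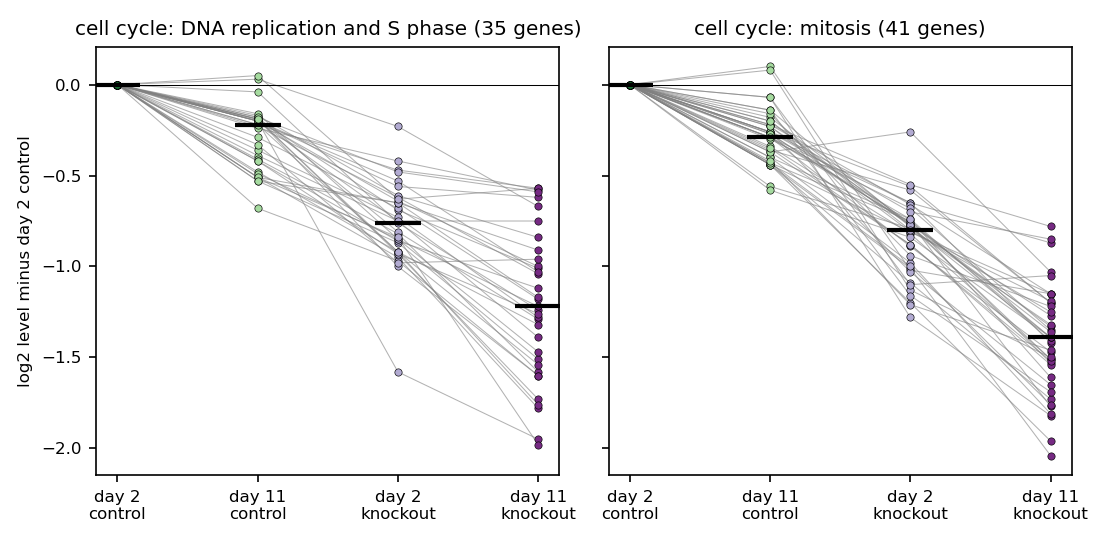
Group means of the 35 S phase and 41 mitosis genes as log2 differences from the day 2 control mean; each point is a gene, thin lines join the same gene across groups and black bars are medians. The medians step down from -0.23 and -0.29 in day 11 control to -1.22 and -1.39 in day 11 knockout.

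Promoters of the mitotic genes share letters known from cell cycle genes, shown here because the list moved as a whole. The cell cycle homology region TTTGAA and the CCAAT box are the usual pair in genes that peak at mitosis. Promoter windows around each start were taken from RefSeq (mouse build GRCm38.p6) and searched on both strands, a gene counting when any of its windows held the letters. Of 34 mitosis genes with a window, 25 held TTTGAA and 25 held CCAAT (73.5% each). Of 31 S phase genes with a window, 4 held TTTGAA (12.9%) and 19 CCAAT (61.3%). Among all 27025 genes with a window the shares were 20.2% and 41.1%. The 250 bases before the start are printed for genes taken by size of fall among those with a single window. Genes on a single chromosome that was left out beforehand were not considered. The first 3 mitosis genes with both motifs in these bases were taken. From the S phase list came the first gene with CCAAT in these bases and no TTTGAA in its window. The bases read 5′ to 3′ along the gene, with both motifs on either strand in capitals.
Ncapg, chr5:45669675-45669924, plus strand: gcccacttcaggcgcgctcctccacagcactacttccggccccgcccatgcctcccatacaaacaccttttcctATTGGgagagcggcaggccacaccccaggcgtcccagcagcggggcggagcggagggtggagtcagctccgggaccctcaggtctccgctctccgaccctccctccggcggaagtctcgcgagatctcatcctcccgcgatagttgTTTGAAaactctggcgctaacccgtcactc
Ccnb2, chr9:70421555-70421804, minus strand: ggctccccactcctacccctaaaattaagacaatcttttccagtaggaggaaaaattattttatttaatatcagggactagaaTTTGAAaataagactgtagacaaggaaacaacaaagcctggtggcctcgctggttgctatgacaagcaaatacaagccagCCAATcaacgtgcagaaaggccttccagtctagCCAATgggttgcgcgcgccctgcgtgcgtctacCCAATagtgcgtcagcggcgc
Cdc20, chr4:118437344-118437593, minus strand: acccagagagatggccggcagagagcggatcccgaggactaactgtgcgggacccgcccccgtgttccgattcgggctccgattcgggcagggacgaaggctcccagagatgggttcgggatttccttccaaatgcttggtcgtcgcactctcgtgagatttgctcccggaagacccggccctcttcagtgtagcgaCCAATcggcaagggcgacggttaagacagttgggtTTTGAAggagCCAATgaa
Mcm6, chr1:128359706-128359955, minus strand: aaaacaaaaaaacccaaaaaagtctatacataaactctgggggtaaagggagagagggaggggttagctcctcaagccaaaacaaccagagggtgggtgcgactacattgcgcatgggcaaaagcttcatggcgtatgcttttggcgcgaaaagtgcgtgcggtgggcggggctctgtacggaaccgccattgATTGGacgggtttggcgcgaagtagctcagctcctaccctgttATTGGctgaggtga
The TTTGAA match ends 25 bases before the start in Ncapg and 13 in Cdc20, but 162 in Ccnb2. A match is a description of the letters and no measure of binding. For the PPAR list the exact direct repeat known as DR1, the PPAR and RXR site, was in none of 28 genes with a window. Among all genes with a window 0.0481% held it, 13 of 27025. So rare a match was hardly to be found among 28 genes, so its absence says nothing about PPAR sites.

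The largest rises above the precursor included several enzymes that cut or modify matrix. Mmp8, a collagenase, was at 6.22 and 6.26 in precursors and 11.07 and 11.09 in day 11 knockout cells, a log2 difference of 4.84 ± 0.14 (adjusted p = 3.76e-06). Mmp12, the macrophage elastase, was at 7.66 and 7.44 against 11.45 and 11.70 (4.02 ± 0.13). Hpse, which encodes heparanase, was at 4.99 and 4.94 against 10.40 and 8.87 (4.67 ± 0.49), with the 2 knockout pools well apart. Papss2, which supplies sulphate for sulphation of glycans, was at 5.79 and 5.48 against 9.82 and 9.59 (4.07 ± 0.13). The rule that chose these 4 genes required arrays without overlap between the 2 groups, so the lack of overlap is no separate result. Hpse and Papss2 were also low in day 11 control, at 4.54 and 4.77 and at 5.25 and 5.27.

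In the matrix and remodelling list 14 of 39 genes were higher and 7 lower (35.9% and 17.9%, beside 12.5% and 13.1% of all genes), with a median of 0.19. Without precursor replicate 2 the median was 0.33 and 3 were lower, without knockout replicate 1 these were 0.10 and 4, and without knockout replicate 2 the median was 0.30. Timp2, an inhibitor of metalloproteinases, was 2.96 ± 0.14, the matrix protein gene Ecm1 2.44 ± 0.09 and the plasminogen activator gene Plau 2.22 ± 0.10 above the precursor. Vcan, which encodes the proteoglycan versican, was lower, at 6.43 and 6.68 against 5.26 and 5.30 (-1.28 ± 0.24), and day 11 control was at 5.00 and 4.87. Lgals3 and Tgfbi, at about 12 on all 4 arrays, were within 2-fold of the precursor. Mmp2, chosen after its values were seen, was at 9.68 on knockout replicate 1 but 5.61 on replicate 2, beside 5.49 and 5.53 in precursors, and did not pass the test (adjusted p = 0.183).

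Inflammatory cytokine and chemokine genes were more often higher than lower: 16 of 40 were higher and 4 lower (40% and 10%, beside 12.5% and 13.1% of all genes), with a median of 0.32; 2 were lower without precursor replicate 2 or knockout replicate 1. Ccl2, the main chemoattractant of monocytes, was at 6.18 and 6.28 in precursors and 9.53 and 9.71 in day 11 knockout cells (3.39 ± 0.22, adjusted p = 4.92e-05). Its relative Ccl7 was at 5.65 and 6.13 against 8.49 and 8.70 (2.71 ± 0.37), and Ptgs2, which makes prostaglandins, at 8.11 and 8.33 against 11.13 and 10.80 (2.74 ± 0.16). In all 3 the knockout arrays were high at both ages. Il6 was at 7.54 and 7.91 against 9.88 and 10.26 (2.35 ± 0.18), with day 11 control at 9.01 and 9.42, so normal cells were above the precursor too. Tnf was at 11.07 and 11.35 against 11.43 and 11.63 and did not pass the test (adjusted p = 0.0841). Besides Il18, Ccl9 was lower (-1.06 ± 0.10); Ccl22 (-0.76 ± 0.15) and Cxcl14 (-0.40 ± 0.12) were lower too, but missed the threshold without precursor replicate 2, at adjusted p = 0.0593 and 0.195, and without knockout replicate 1, at 0.0521 and 0.14. Cxcl14 also missed it without any other array of the precursor, day 11 control or knockout groups, at 0.0534 to 0.113.

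Growth factor and cytokine signalling genes were more often higher. Csf1, the ligand that sustains macrophages through the receptor Csf1r, was at 5.63 and 5.74 in precursors and 8.46 and 8.35 in day 11 knockout cells (2.72 ± 0.08, adjusted p = 3.76e-06), and day 11 control was at 5.46 and 5.60. Csf1r was 0.60 ± 0.08 higher. In the list of GM-CSF and TGF-β signalling 11 of 31 genes were higher and 1, Tgfb1, lower (35.5% and 3.23%, beside 12.5% and 13.1% of all genes), with 7 higher without precursor replicate 1 and none lower without precursor replicate 2 or knockout replicate 2. Tgfb1, which encodes the cytokine itself, was -0.32 ± 0.08 (adjusted p = 0.0199, but 0.119, 0.0966 and 0.0565 without precursor replicate 2, knockout replicate 1 and knockout replicate 2). Socs3 and Cish, feedback inhibitors of cytokine signalling, were 1.11 ± 0.20 and 0.99 ± 0.09 higher. The GM-CSF receptor gene Csf2ra was at 11.31 on both precursor arrays and 11.56 and 11.64 in the knockout (0.29 ± 0.07, adjusted p = 0.0212, but 0.0899 and 0.0923 without precursor replicate 1 or 2 and 0.111 without knockout replicate 2), and Csf2rb at 11.59 and 11.58 against 11.39 and 11.41 (-0.18, adjusted p = 0.0587). Both receptor chains thus lay near the precursor level.

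Several complement genes stood between the precursor and the day 2 knockout. Of the list 46.7% were higher than in precursors and 6.67% lower, beside 12.5% and 13.1% of all genes. Of 15 genes 7 were higher than in precursors, the gate genes Itgam and Itgax among them, and 1, the anaphylatoxin receptor gene C5ar1, was lower (-0.78 ± 0.12); 2 were lower without either day 2 knockout array. Against day 2 knockout, 2 were higher and 6 lower, beside 8.81% and 6.71% of all genes. C3ar1, the receptor for C3a, was at 6.96 and 6.88 in precursors and 10.37 and 10.60 in day 11 knockout cells (3.56 ± 0.14, adjusted p = 7.49e-06). C1qb and C1qc, which encode chains of the first complement component, were 2.03 ± 0.12 and 1.78 ± 0.13 above the precursor with differences of -2.61 and -3.07 from day 2 knockout. Both knockout arrays for C1qb, 8.75 and 8.59, lay between 6.63 and 6.64 in precursors and 11.38 and 11.17 in day 2 knockout cells.

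Uptake receptors changed in both directions, with 16 of 39 higher and 8 lower (41.0% and 20.5%, beside 12.5% and 13.1% of all genes). Below the precursor, besides Marco, were the Fc receptor gene Fcgr4, at 9.62 and 9.52 against 7.76 and 6.69 (-2.34 ± 0.31), and Clec4a1, at 7.89 and 7.75 against 6.12 and 6.31 (-1.60 ± 0.16). Above it were the scavenger receptor gene Colec12, at 9.04 and 8.65 against 11.36 and 11.20 (2.43 ± 0.13), the lectin gene Clec4d (1.92 ± 0.13), the inhibitory Fc receptor gene Fcgr2b (1.85 ± 0.07) and the lipid sensor gene Trem2 (1.47 ± 0.07). Fcgr4 was at 9.76 and 9.21 in day 2 knockout and 9.37 and 9.49 in day 11 control cells, so its level in the day 11 knockout was the lowest of the 4 groups.

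Of 43 transcription factor genes 16 were higher and 6 lower (37.2% and 14%, beside 12.5% and 13.1% of all genes), so the lower share was near that of all genes. Irf4, a factor of dendritic cells and of alternatively activated macrophages, was at 4.85 and 4.61 in precursors and 8.02 and 8.92 in day 11 knockout cells (3.74 ± 0.30, adjusted p = 0.000105), with day 11 control between them at 6.20 and 6.87. Ahr, a sensor of aromatic compounds, was at 6.55 and 6.49 against 8.24 and 8.40 (1.80 ± 0.11). Lower, besides Nr1h3, were Id1 (-1.03 ± 0.08), Cebpb (-0.79 ± 0.08) and Cebpa (-0.48 ± 0.06). Runx1, Tfec and Irf8 lay within 2-fold of the precursor. Immediate early genes, which respond within minutes to stimulation or to tissue handling, were higher in 17 of 27 and lower in 3. These are 63.0% and 11.1%, beside 12.5% and 13.1% of all genes, with a median of 0.40. The rises were led by Nr4a3 (1.72 ± 0.07), Gadd45b (1.61 ± 0.09) and Nr4a2 (1.54 ± 0.07). Against day 11 control 15 of the 27 were higher too, beside 9.34% of all genes. Whether handling had a part in the inflammatory genes above was not tested.

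Monocyte genes were above the precursor more often than below it, and many were below the day 2 knockout. Of 32 genes 14 were higher and 3 lower than in precursors (43.8% and 9.38%, beside 12.5% and 13.1% of all genes), with a median of 0.18. Against day 2 knockout none was higher and 19 were lower (median -0.57), beside 8.81% and 6.71% of all genes. Ccr2, the receptor that brings monocytes into tissue, was at 8.11 and 8.04 in precursors, 8.28 and 8.54 in day 11 knockout, 6.23 and 6.08 in day 11 control and 10.78 and 10.79 in day 2 knockout cells. Its difference from the precursor was 0.33 ± 0.10 (adjusted p = 0.0375), lost without precursor replicate 1 (0.103) or 2 (0.167) or knockout replicate 2 (0.188), where the value was 0.20. Ccr2 thus lay near the precursor and between the other groups. Ifitm3 and Ms4a4c, chosen after their values were seen, were at 7.48 and 6.66 and at 3.96 and 3.41 in the day 11 knockout, close to the precursor (7.19 and 6.92; 3.69 and 3.72) where day 2 knockout was at 11.56 and 10.12 and at 9.64 and 6.27, but the intervals of both differences reached beyond 2-fold.

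The monocyte genes above the precursor, other than Itgam, included S100a6, a calcium-binding protein, at 8.004 and 7.86 against 9.61 and 9.87 (1.81 ± 0.15), Itga4, an integrin chain (1.41 ± 0.09), and Ifitm2 (1.84 ± 0.13). S100a6 was at 6.22 and 5.79 in day 11 control, so the normal and the knockout cell lay on opposite sides of the precursor. Treml4 was lower, at 9.86 and 10.09 against 7.37 and 7.19 (-2.70 ± 0.13, adjusted p = 1.52e-05), and was at 9.64 or above in the other groups. Among macrophage genes of other tissues 14 of 39 were higher and 2, Fcgr4 and Mertk (-0.47 ± 0.08), lower, with a median of 0.22. These are 35.9% and 5.13%, beside 12.5% and 13.1% of all genes.

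Of 13 genes of MHC class II presentation 6 were higher and 1, H2-Oa (-1.17 ± 0.10), lower (46.2% and 7.69%, beside 12.5% and 13.1% of all genes), but 3 were higher without either precursor array. Cd74, the invariant chain, was at 8.10 and 8.04 in precursors and 8.79 and 9.81 in the knockout (1.23 ± 0.28, adjusted p = 0.015; 0.071 and 0.082 without precursor replicate 1 or 2, and a difference of 0.72 without knockout replicate 2). The costimulatory genes Cd80 and Cd86 were 1.49 ± 0.08 and 1.43 ± 0.10 higher. The class II activator gene Ciita was at 5.06 and 5.09 against 4.98 and 5.17, near the array median, while day 2 knockout was at 6.61 and 6.58.

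Lysosomal and respiratory genes differed by less than 2-fold in most cases. Of lysosomal genes 26.3% were higher and 5.26% lower, beside 12.5% and 13.1% of all genes. Of oxidative phosphorylation genes 47.4% were lower, beside the same 13.1%. Of 38 lysosomal genes 10 were higher and 2 lower, and 26 were uncalled with intervals within 2-fold; without precursor replicate 1 or 2 or knockout replicate 1 there were 6 higher, and without any 1 of the 4 arrays compared there was 1 lower. Ctsd and Psap, abundant lysosomal genes, were at 12.2 or above on all 4 arrays with differences of 0.00 and 0.10. In oxidative phosphorylation 18 of 38 genes were lower and none higher, with 7, 8 and 9 lower without precursor replicate 1, precursor replicate 2 and knockout replicate 2; the median was -0.23, Cycs (cytochrome c) -0.85 ± 0.09 and Ndufa4 -0.88 ± 0.08.

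Of 29 genes of glycolysis and the low-oxygen response 5 were higher and 3 lower, with 2 and 3 higher without precursor replicate 1 and knockout replicate 1. With all 8 arrays 17.2% of the list were higher and 10.3% lower, near the 12.5% and 13.1% of all genes. The oxygen sensor gene Egln3 was at 6.64 and 6.92 in precursors and 4.76 and 4.62 in day 11 knockout cells (-2.09 ± 0.15). In day 11 control it was at 5.39 and 5.37. Pdk1 was -1.15 ± 0.08. Fbp1, an enzyme of glucose synthesis, was at 4.04 and 4.23 in precursors, 6.80 and 8.32 in the day 11 knockout and 9.48 and 10.43 in day 11 control (3.42 ± 0.46 above the precursor and -2.40 from day 11 control), between both normal ages.

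Genes of the fetal and imprinted growth list were lower in 6 of 26 and higher in 2. These are 23.1% and 7.69%, beside 13.1% and 12.5% of all genes. On each day 11 knockout array only 9 of the 26 lay above the array median. Mest (-0.85 ± 0.11) and Igf2 (-0.73 ± 0.11) were among the lower. They differed by -0.11 and 0.13 from day 11 control and did not pass the test there. Without precursor replicate 2, 1 was higher. Of 34 interferon response genes 1, Ly6e, was higher (0.38 ± 0.08) and none lower, beside 12.5% and 13.1% of all genes. But 25 were uncalled with intervals beyond 2-fold, beside 0.942% of all genes. The 2 day 2 knockout arrays enter the common estimate of spread, and without either of them 8 were higher and 1 lower; with only the 4 arrays compared these were 7 and 1. Of 27 interferon genes with a promoter window 17 held the exact core of the interferon-stimulated response element (63.0%, beside 3.99% of all genes).

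Single genes stood out among markers of other blood cells. On the 2 knockout arrays 8 and 12 of 22 dendritic cell and 7 and 6 of 18 neutrophil markers lay above the array median. So did 3 and 3 of 17 T and NK cell and 2 and 3 of 11 B cell markers. On each knockout array it was 2 of 10 eosinophil, 1 of 10 erythroid and 0 of 12 mast cell and basophil markers. Of dendritic cell markers 18.2% were higher and 9.09% lower, near the 12.5% and 13.1% of all genes. Clec9a, a receptor for dead cells on cross-presenting dendritic cells, was at 4.55 and 4.73 in precursors and 8.78 and 9.28 in day 11 knockout cells (4.39 ± 0.18, adjusted p = 7.49e-06), but Xcr1, which marks the same dendritic cells, was at 4.11 and 4.36, Zbtb46 at 4.91 and 5.09 and Flt3 at 4.28 and 4.47 there, the last 3 chosen after their values were seen. Of 22 dendritic cell markers 4 were higher, namely Clec9a, Irf4, Cd24a and Cadm1, and 2 lower, with none lower without precursor replicate 2 or knockout replicate 1 and 1 without knockout replicate 2. Cadm1 (0.43) missed the threshold without precursor replicate 1 (adjusted p = 0.0712) or 2 (0.146) or knockout replicate 1 (0.104), where its value was 0.25.

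Beside the counts below, 12.5% of all genes were higher and 13.1% lower. The shares were 16.7% and 11.1% for neutrophil, 10% and 10% for endothelial and 10% and 30% for erythroid markers. Higher were 17.6% of T and NK cell markers, and lower were 9.09% of B cell, 20% of eosinophil and 11.8% of fibroblast markers. With lists this small the counts are not read as a result about a cell type. Of 18 neutrophil markers 3 were higher, Mmp8, Retnlg and Il1r2, while Elane, Mpo, Ngp and Camp were at 5.02 or below on both knockout arrays. Of the 2 that were lower, Cxcr1 was -1.22 ± 0.16; 1 was lower without any 1 array of the precursor or day 11 control groups or without knockout replicate 2. Of 17 T and NK cell markers 3 were higher, namely Il7r (1.87 ± 0.32), Klrb1c (0.7) and Cd3e (0.45). Without knockout replicate 1 the Klrb1c difference was 0.45. Cd3d, Cd3g, Cd4 and Cd8a were at 4.77 or below on both knockout arrays. Of 11 B cell markers 1 was lower, Cd79b, at 8.04 and 7.92 against 5.92 and 5.85 (-2.09 ± 0.08), while Cd79a, Ms4a1 and Pax5 were at 4.66 or below on all 4 arrays. Without precursor replicate 2, knockout replicate 1 or either day 2 knockout array, 1 B cell marker was higher. None of 12 mast cell and basophil markers passed limma's test (1 was lower without precursor replicate 2), and of 10 eosinophil markers 2 were lower, Ear6 (-0.56 ± 0.06) and Siglece (-0.52 ± 0.08). Of 20 endothelial markers 2 were higher and 2 lower, with none lower without precursor replicate 1 or 2 or knockout replicate 2 and 1 without knockout replicate 1 or either day 11 control array. Of 17 fibroblast and smooth muscle markers 2 were lower, and none without precursor replicate 1 or 2 or knockout replicate 1. Of 10 erythroid markers 1 was higher and 3 lower; none was higher without any 1 array of the precursor, day 11 control or day 11 knockout groups, and 1 was lower without precursor replicate 1 or knockout replicate 2. The part of RNA from other cells in the results was not tested.

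Rnase2a, of a family of near-identical ribonuclease genes that the probes may not separate, was at 5.59 and 6.44 in precursors, 9.64 and 10.97 in day 11 knockout and 10.16 and 10.68 in day 11 control cells (4.29 ± 0.43 above the precursor, -0.12 from day 11 control). Ephx1, an epoxide hydrolase, was at 5.23 and 5.26 against 9.04 and 9.27 (3.91 ± 0.18), with day 11 control at 6.75 and 6.28. Kcnn4, a calcium-activated potassium channel, and Qpct, a glutaminyl cyclase, were 3.80 ± 0.16 and 3.71 ± 0.08 above the precursor.

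The remaining large falls were Slco2b1, an organic anion transporter (-3.64 ± 0.30), Tc2n (-3.22 ± 0.40), Cd101, an inhibitory surface protein (-2.94 ± 0.13), the linker histone gene H1f1 (-2.75 ± 0.14), the formin gene Fhdc1 (-2.72 ± 0.15) and Awat1, a wax ester synthase (-2.72 ± 0.21). Cd101 was at 9.05 and 9.03 in precursors, 8.24 and 8.10 in day 11 control, 8.37 and 8.41 in day 2 knockout and 5.89 and 6.31 in day 11 knockout cells, which set the day 11 knockout apart from all other groups.

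**Figure D4:**
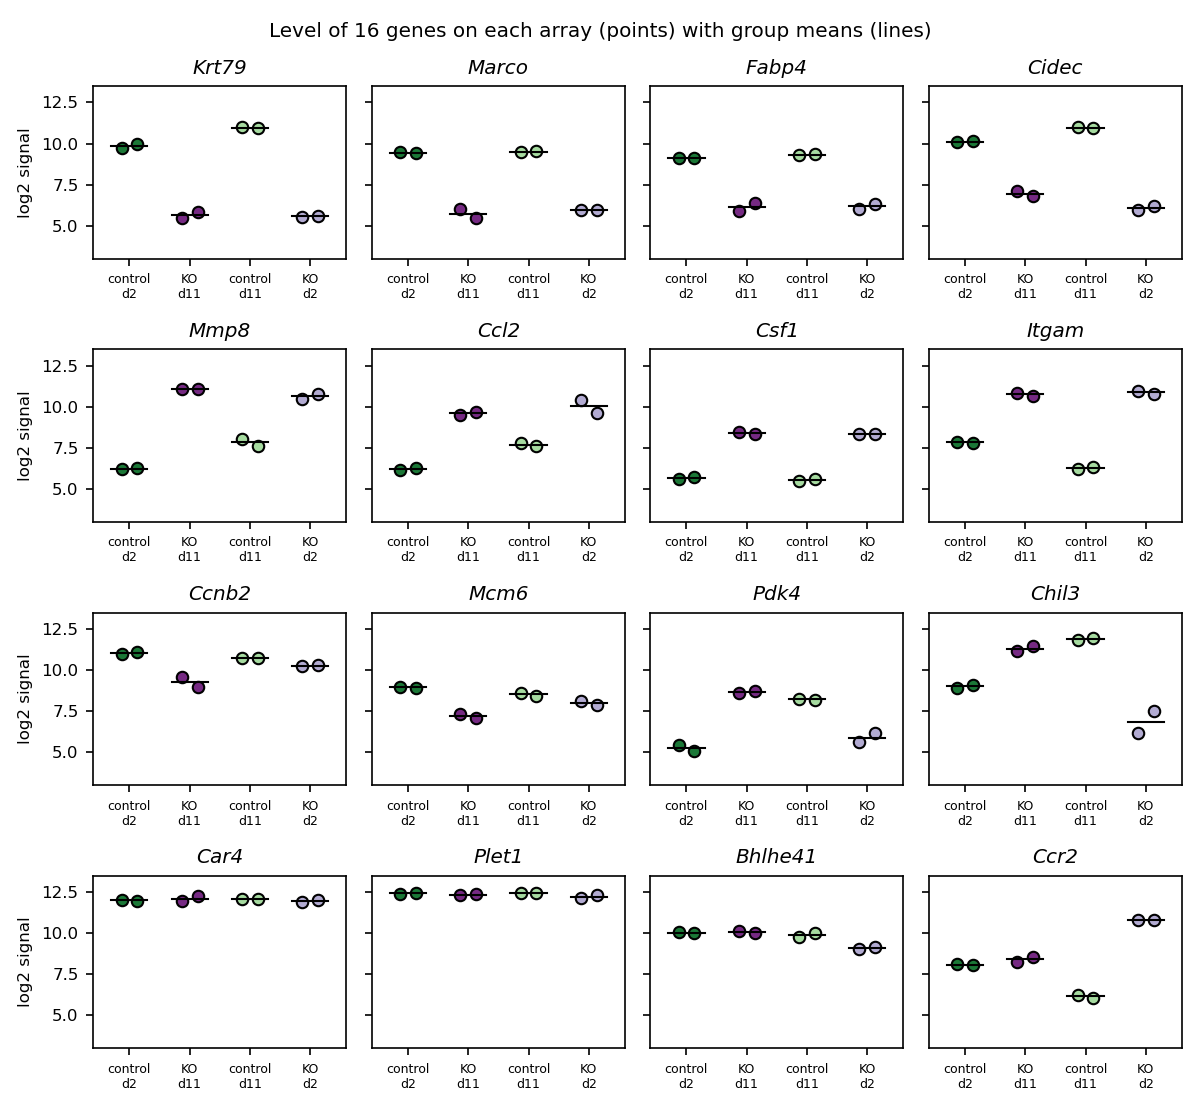
Log2 signal of 16 genes on each of the 8 arrays (points) with group means (lines), in the order day 2 control, day 11 knockout, day 11 control and day 2 knockout. The top row is low in both knockout groups, and the second row is high in both. Ccnb2 and Mcm6 are lowest in the day 11 knockout. There Pdk4 and Chil3 are nearer to day 11 control than to the precursor, and Car4, Plet1, Bhlhe41 and Ccr2 are near the precursor.

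**Figure D5:**
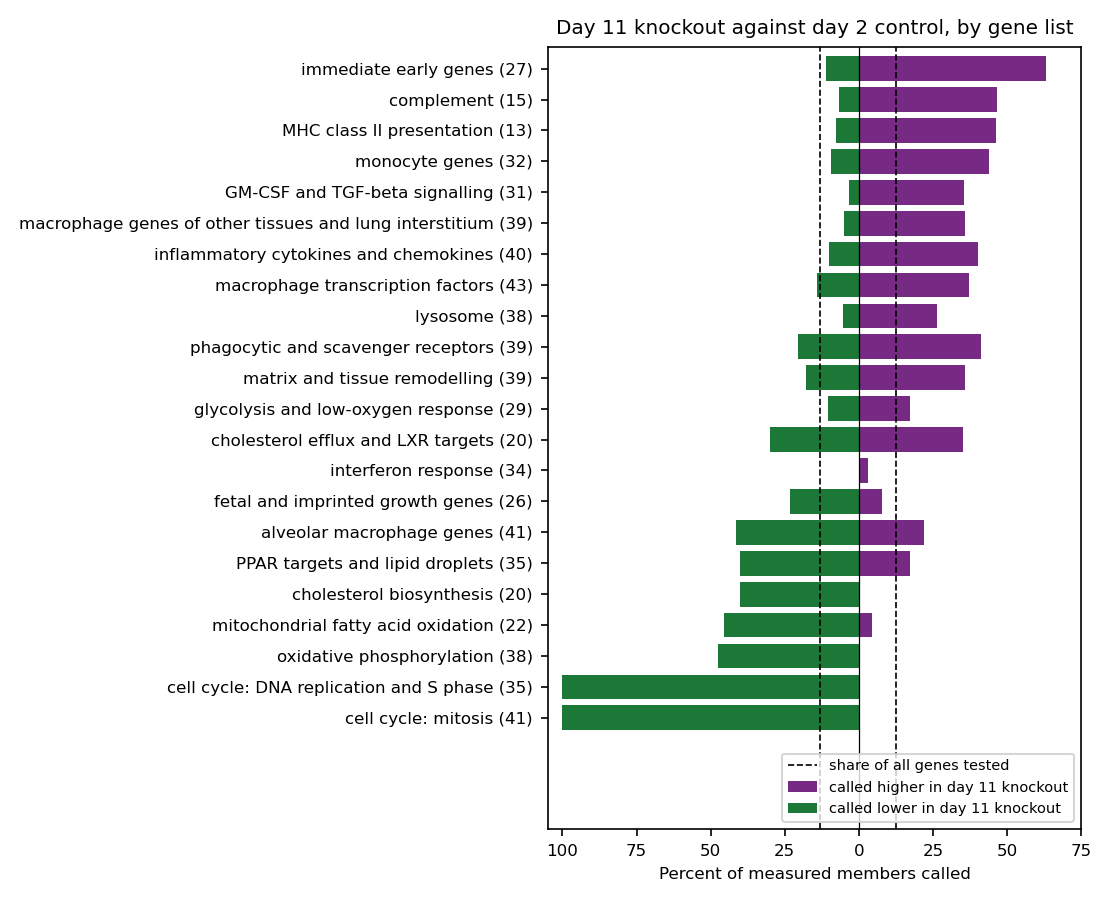
Percent of the measured members of each gene list (number in brackets) that passed the test as lower (green, to the left) or higher (purple, to the right) in day 11 knockout than in day 2 control; dashed lines mark the shares over all genes tested, 13.1% and 12.5%. The 2 cell cycle lists reach 100% lower, and immediate early genes reach 63.0% higher.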

How the data were processed

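Gene expression was measured on 8 Affymetrix arrays, 2 in each of 4 groups, each with RNA of sorted lung cells pooled from 2 mice. The deposited values are log2 signals which the authors made with RMA; the submitters' processing notes name R 2.15.2 and give no level of summarisation. All arrays share a median of 5.351, so a shift common to all genes cannot be seen. Of 28874 probe sets, 21159 had 1 gene symbol, 1881 several and 5834 none; only the first were used, and the probe set with the highest mean over the 8 arrays stood for its gene, which gave 18782 genes.

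A linear model with the 4 group means was fitted over all 8 arrays with limma 3.58.1 (lmFit and eBayes) in R 4.3.3, with Benjamini-Hochberg adjustment over all genes and a threshold of 0.05. Errors are SE of the fit and n = 2 throughout. Nothing in the labels says that replicates share a litter or day, and p-values measure the spread between pools. The number of arrays limits the precision. The code was tested on simulated data.

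The comparison, its members and the 33 gene lists were chosen with earlier results of these data known. Genes are named by a rule: the 12 largest called rises and falls without overlap between arrays, up to 5 in each direction per list, all called members where 5 or fewer, up to 3 members at the precursor level per list, and a set of defining genes; others are named as chosen after their values were seen, or as defining markers of another cell type. Of 938 list entries 81 had no gene tested, and 88 genes were in more than 1 list. Alternatives were the 4 arrays alone, a replicate block, the mean of all probe sets, leaving out dim genes, another prior, centring, a test against 2-fold, a 1.5-fold bound, leaving out each array, and, chosen after seeing the data, Xist signal as a block. Promoter sequences are from RefSeq.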

Additional observations from a re-analysis of the deposited data

How the results depend on the processing

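Without single arrays the genes called between day 11 knockout and day 2 control ranged from 2948 to 5063, with 1448 to 2523 higher and 1480 to 2540 lower; without precursor replicate 1 there were 3018 (1448 higher, 1570 lower) and without replicate 2 there were 2948 (1468 higher, 1480 lower). Against day 11 control the range was 2059 to 3760, and against day 2 knockout 1541 to 2985. With only the 4 arrays compared, 1466 genes differed between the knockout ages. A test against 2-fold instead of 0 called 209 genes for the main comparison. Leaving out dim genes put 9386 within 2-fold. Fewer genes are tested there, so this count cannot be set directly against 17439. The root mean square difference of the day 11 knockout from each other group was larger in that setting. It was 0.554 against day 2 control, 0.537 against day 11 control and 0.463 against day 2 knockout. With the replicate number as a block 4672 genes were called, 4475 of them shared with the 4813. The deviations of same-numbered arrays correlated between -0.08 and 0.25 over pairs of groups. With 2 arrays per group this cannot show whether same-numbered samples were paired. The other settings called 4689 (4 arrays only), 4772 (mean of probe sets), 4702 (dim genes left out), 4937 (another prior), 4852 (centred) and 4486 genes (Xist signal as a block, chosen after seeing the data). A bound of 1.5-fold held 14991 genes. Outside the test against 2-fold and the 1.5-fold bound, where this was not counted, every call shared with the 4813 had the same direction. Over the same settings, of 191 called genes among the 283 chosen by the rule, 146 were called in each setting that tested them, 45 were lost in at least 1 and 0 reversed.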
